A study of Mus musculus with 6 samples.

Results

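Large peritoneal macrophages are the main resident macrophages of the peritoneal cavity, and a small set of genes marks them. The 9 identity genes described here, *Gata6*, *Timd4*, *Vsig4*, *F5*, *Lbp*, *Alox15*, *Icam2*, *Selp* and *Prg4*, were taken by gene symbol from the deposited expression table. Each symbol matched 1 row, so 9 of 54532 genes are described. RNA had been sequenced from primary macrophages of METRNL-/- mice (KO, 3 libraries) and of METRNL+/+ mice (WT, 3 libraries). Both groups had been exposed to the fungus *Candida albicans* for 6 h, so no library shows unexposed cells, and the comparison asks how gene levels during the challenge differ with genotype. The labels used here give no tissue of origin beyond macrophages, no promoter or Cre and no design of the deleted allele. They also do not say whether the replicates were separate mice or cultures. The p-values therefore set the difference between groups against the spread of these libraries only, and that spread may be technical.

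In mice, GATA6 is the transcription factor that gives large peritoneal macrophages their identity, and retinoic acid from the surrounding tissue maintains it. Several other genes of the set depend on GATA6 in mice. Resident macrophages of this kind take up dying cells, bind complement-coated particles and secrete clotting and lubricating proteins. Outside the peritoneum several of these genes are used by other cells: *Selp* by platelets and endothelium, *Alox15* by eosinophils, *Lbp* and *F5* by liver cells and *Prg4* by joint lining cells.

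Among the 9, Timd4 and Vsig4 fell by the largest factors, and F5 and Selp are neighbours of which F5 alone was called. No start region is shown for the other members, Gata6 included. The start regions shown are those of Timd4, Vsig4, F5 and Selp. They are the RefSeq promoter windows on GRCm38.p6, each with 250 bases before and 50 bases after the gene start, read 5′ to 3′ on the gene's own strand. The Timd4 window is chr11:46810549-46810848 on the plus strand and the Vsig4 window is chrX:96293389-96293688 on the minus strand. The F5 window is chr1:164151585-164151884 and the Selp window is chr1:164115014-164115313, both on the plus strand. Capitals mark matches on either strand. The GATA motif is spelled AGATAA or with its first letter T or its last letter G or both. The retinoid receptor core is AGGTCA, only a part of a full site. The core of the macrophage factor PU.1 is GAGGAA. The AP-1 motif is TGACTCA, which reads TGAGTCA on the other strand.
Timd4: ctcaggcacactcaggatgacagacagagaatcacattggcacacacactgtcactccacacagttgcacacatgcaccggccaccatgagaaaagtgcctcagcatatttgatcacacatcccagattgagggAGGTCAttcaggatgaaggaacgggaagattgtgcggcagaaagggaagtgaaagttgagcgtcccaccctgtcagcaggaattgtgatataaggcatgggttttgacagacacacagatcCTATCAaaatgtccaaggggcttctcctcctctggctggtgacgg
Vsig4: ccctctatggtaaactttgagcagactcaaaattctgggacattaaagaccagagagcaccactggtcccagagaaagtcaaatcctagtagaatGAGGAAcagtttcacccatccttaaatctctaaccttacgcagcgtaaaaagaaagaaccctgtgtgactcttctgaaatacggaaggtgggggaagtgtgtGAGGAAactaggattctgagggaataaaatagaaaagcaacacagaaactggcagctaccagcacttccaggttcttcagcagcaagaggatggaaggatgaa
F5: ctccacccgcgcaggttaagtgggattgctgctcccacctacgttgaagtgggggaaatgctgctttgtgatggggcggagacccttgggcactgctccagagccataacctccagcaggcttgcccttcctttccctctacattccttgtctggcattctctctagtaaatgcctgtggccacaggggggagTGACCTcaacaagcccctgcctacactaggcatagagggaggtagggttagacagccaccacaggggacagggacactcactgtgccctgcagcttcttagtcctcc
Selp: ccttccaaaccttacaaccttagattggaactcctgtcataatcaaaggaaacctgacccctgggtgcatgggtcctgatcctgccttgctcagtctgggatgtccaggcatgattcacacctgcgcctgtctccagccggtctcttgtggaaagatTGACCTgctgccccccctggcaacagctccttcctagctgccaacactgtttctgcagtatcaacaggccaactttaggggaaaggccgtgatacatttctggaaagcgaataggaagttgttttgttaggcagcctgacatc

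The Timd4 window holds 1 GATA match, just after the start, and 1 retinoid receptor core. The Vsig4 window holds 2 PU.1 cores and no match to the other motifs. F5 and Selp each hold 1 retinoid receptor core, found on the minus strand. Full retinoid receptor sites were not searched for. Among all 32851 windows of the same table, 29.8% hold a GATA match, 28.3% a PU.1 core, 16.3% a retinoid receptor core and 5.20% an AP-1 match. No marked matches overlap each other. The matches are letters in these windows and show no binding.

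Depth, taken as the reads recovered from the deposited FPKM (fragments scaled by gene length and library total), ranged from 11026529 to 15724897 reads in genes. The 10 most read genes took 13.7%, 10.6% and 10.6% of the reads in KO replicates 1 to 3 and 10.5%, 13% and 13.4% in WT replicates 1 to 3, so replicate 1 stood apart in both groups, in opposite directions. *Metrnl* RNA was 51.2, 63.6 and 62.8 FPKM in KO replicates 1 to 3 and 93.5, 63.2 and 69.8 FPKM in WT replicates 1 to 3 (limma, adjusted p = 0.181). This value per gene does not show which exons remain and does not check the genotype labels, so KO means the libraries labelled KO throughout. Although the extraction label speaks of retinas, 7 of 8 retinal markers lay under the filter of 0.5 FPKM, and their sum was at most 1.33 FPKM in KO and 0.921 FPKM in WT.

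All 9 identity genes passed the filter, a mean of at least 0.5 FPKM over the 6 libraries, which 11689 genes passed. Of the 9, *Timd4*, *Vsig4*, *Alox15* and *Prg4* fell in KO, *F5* and *Lbp* rose, and *Gata6*, *Icam2* and *Selp* did not pass the test (limma on log2(FPKM + 1), Benjamini-Hochberg adjusted p below 0.05 over all tested genes). Of all tested genes 12.4% were called lower and 15.7% higher in KO, the background for every list count given below. The 2 rises among 9 are near that background and the 4 falls are above it. In 6 of the 9 the KO and WT values did not overlap, against 45.6% of all tested genes. The median log2 fold change, KO minus WT, was -0.19 over the 9 and 0.03 over all tested genes. In bulk RNA, fewer cells of a type and less RNA per cell cannot be told apart.

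**Figure D1:**
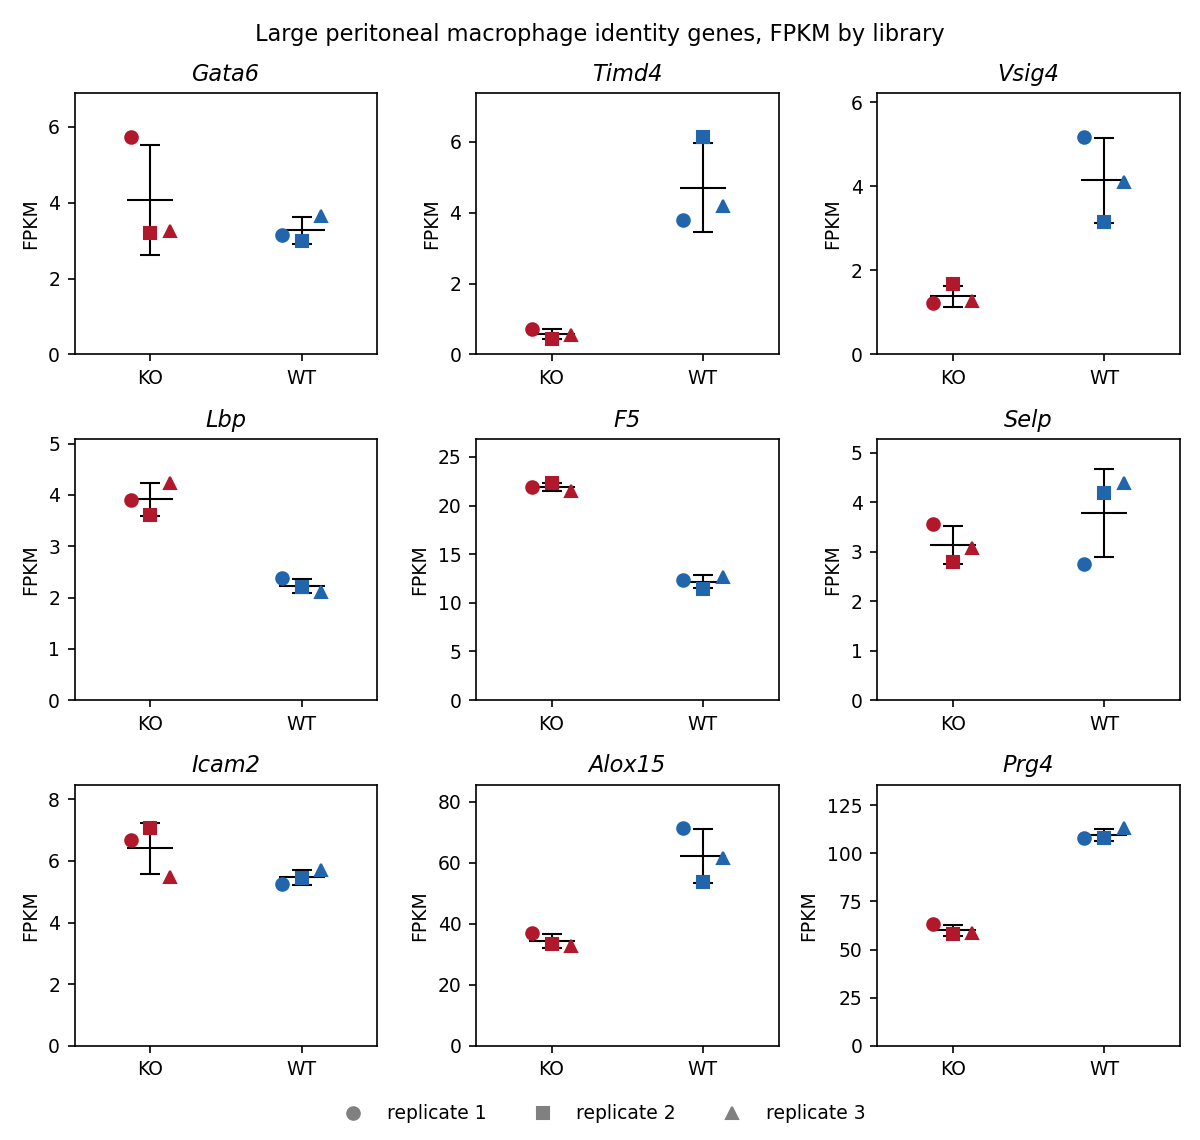
FPKM of the 9 identity genes in each library, KO left and WT right in every panel. Points are libraries with the symbol giving the replicate, the long bar is the mean and the error bar is 1 SD (n = 3 each). KO and WT values stand apart for *Timd4*, *Vsig4*, *Lbp*, *F5*, *Alox15* and *Prg4* and overlap for *Gata6*, *Selp* and *Icam2*.

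*Gata6* (ENSMUSG00000005836, chromosome 18, 11052508 to 11085635, plus strand, GRCm38, the build of all coordinates given), the regulator of the set, did not pass the test. It was at 5.73, 3.20 and 3.26 FPKM in KO replicates 1 to 3 and at 3.16, 2.99 and 3.66 FPKM in WT replicates 1 to 3. KO replicate 1 stood high, while the other KO libraries lay within the WT range. The log2 fold change was 0.21 ± 0.19 (SE), and its 95% confidence interval ran over -0.26 to 0.68 (limma, adjusted p = 0.462). Without KO replicate 1 it was -0.01 (adjusted p = 0.942). Over 18 alternatives its adjusted p ran from 0.332 to 0.972. The interval covers changes in both directions, so equal levels are not shown.

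Around *Gata6*, a list of retinoid pathway genes and macrophage transcription factors had 14 of 21 genes above the filter. Of these, 3 were called higher and 1 lower, against 15.7% and 12.4% of all tested genes. The median log2 fold change of the list was 0.04. *Aldh1a2*, of an enzyme that makes retinoic acid, fell to 1.15 ± 0.202 FPKM in KO, against 3.25 ± 0.798 FPKM in WT (SD and n = 3 each; limma, adjusted p = 0.00717). The transcription factor gene *Klf4* rose 3.02-fold to 9.61 ± 3.04 FPKM in KO, against 3.18 ± 0.401 FPKM in WT, and *Bhlhe40*, of a factor that supports proliferation of peritoneal macrophages in mice, rose 1.43-fold (adjusted p = 0.0094 and 0.0103). *Rxra*, of a retinoid X receptor, was 1.25-fold higher (adjusted p = 0.0475), a call that was lost without any library other than WT replicate 1 (adjusted p from 0.07 to 0.146). Of the 3 rises, 1 was left in TPM and 1 with quantile normalization, *Klf4* each time. *Bhlhe40* had adjusted p = 0.129 in TPM and 0.128 with quantile normalization. A replicate block called none of the 3. The cardiac and gut relative *Gata5* had 0 reads in every library.

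Surface receptors fell furthest. *Timd4* (ENSMUSG00000055546, chromosome 11, 46810800 to 46844332, plus strand) encodes TIM-4, a receptor for the phosphatidylserine that dying cells expose. Its level was 0.719, 0.437 and 0.553 FPKM in KO replicates 1 to 3 and 3.79, 6.14 and 4.19 FPKM in WT replicates 1 to 3. The groups lay far apart, with every KO library below 1 FPKM. The mean was 8.26-fold lower in KO (0.570 ± 0.142 FPKM in KO, against 4.71 ± 1.26 FPKM in WT, each with SD over n = 3; the log2 difference was -1.84 ± 0.17 with its SE, by limma at adjusted p = 0.000958). It rests on 53 reads over the KO libraries and 403 over the WT libraries. The pseudocount of 1 compresses such a low gene: with 0.1 the log2 fold change was -2.83, and with voom on the recovered reads it was -3.00.

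*Vsig4* (ENSMUSG00000044206, chromosome X, 96247203 to 96293438, minus strand) encodes CRIg, a receptor of resident macrophages for complement C3 fragments. It was at 1.21, 1.67 and 1.26 FPKM in KO replicates 1 to 3, against 5.17, 3.15 and 4.09 FPKM in WT replicates 1 to 3. The groups did not overlap, and the WT libraries varied more than the KO libraries. The mean was 3.0-fold lower in KO (1.38 ± 0.249 FPKM in KO, against 4.14 ± 1.01 FPKM in WT, each with SD over n = 3; the log2 difference was -1.10 ± 0.16 with its SE, by limma at adjusted p = 0.00517), from 90 reads over the KO libraries and 254 over the WT libraries.

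Genes that share the functions of these receptors moved in both directions. Among apoptotic cell receptors and bridging molecules 13 of 17 were tested, 4 were called higher and 2 lower, with a median log2 fold change of 0.15. The integrin genes *Itgb5* and *Itgav* rose 1.85-fold and 1.37-fold, and *Pros1*, of the bridging protein S, rose 1.47-fold (limma, adjusted p = 0.00149, 0.0149 and 0.00769). *Havcr1*, which encodes TIM-1, fell to 0.136 ± 0.0487 FPKM in KO, against 0.990 ± 0.139 FPKM in WT (adjusted p = 0.00303), from 14 reads over the KO libraries and 91 over the WT libraries. *Cd300lf*, of a phosphatidylserine-binding receptor, was 1.86-fold lower (adjusted p = 0.0381), a call that was lost without any library other than KO replicate 1. The rises numbered 2 without KO replicate 2, KO replicate 3 or WT replicate 3, and 1 in TPM.

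Of 10 genes of complement C3, its regulators and other receptors, 6 were called higher and 0 lower with limma. With an unadjusted p below 0.05, 9 were higher and 0 lower, and voom called 0 lower. In TPM 3 were called higher, with a replicate block 2 and with array weights 8. Array weights and centring on pan-macrophage markers each called 1 lower. *Itgb2*, of the beta chain of complement receptor 3, rose 1.69-fold and *Itgam*, of its alpha chain, 1.36-fold (adjusted p = 0.00633 and 0.00594). *Itgam* was not called in TPM (adjusted p = 0.0792), and a replicate block called neither (adjusted p = 0.0548 and 0.0544).

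The secreted proteins of the set went both ways. *Prg4* (ENSMUSG00000006014, chromosome 1, 150449412 to 150466165, minus strand) encodes lubricin and was the highest of the 9 in both groups. Its level was 63.4, 58 and 58.6 FPKM in KO replicates 1 to 3 and 108, 108 and 113 FPKM in WT replicates 1 to 3. The values were tight in both groups and far apart. The mean was 1.83-fold lower in KO (60.0 ± 2.94 FPKM in KO, against 109.6 ± 2.96 FPKM in WT, each with SD over n = 3; the log2 difference was -0.86 ± 0.07 with its SE, by limma at adjusted p = 0.00057). Its annotated span overlaps that of *Tpr* on the other strand, which reached at most 13.5 FPKM in any library. Whether reads were counted by strand is not given in the sources used here.

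*F5* (ENSMUSG00000026579, chromosome 1, 164151838 to 164220277, plus strand) encodes coagulation factor V, the cofactor that speeds prothrombin activation. It reached 21.9, 22.4 and 21.5 FPKM in KO replicates 1 to 3, against 12.4, 11.4 and 12.7 FPKM in WT replicates 1 to 3. The KO libraries differed from each other by less than 1 FPKM and lay above every WT library. The mean was 1.80-fold higher in KO (21.9 ± 0.430 FPKM in KO, against 12.1 ± 0.672 FPKM in WT, each with SD over n = 3; the log2 difference was 0.80 ± 0.06 with its SE, by limma at adjusted p = 0.000629).

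Among 11 tested genes of prothrombin activation and its inhibitors, 2 were called higher and 0 lower with limma. The shares over all tested genes were 15.7% higher and 12.4% lower. At an unadjusted p below 0.05, 4 of the 11 were higher and 0 lower, and voom called 0 lower. However, 1 was called lower without KO replicate 1 and 1 with array weights. Without both replicate 1 libraries 2 were called lower and 4 higher. *F7*, of the factor that starts clotting together with tissue factor, rose 2.10-fold to 103 ± 6.16 FPKM in KO, against 48.8 ± 5.63 FPKM in WT (adjusted p = 0.00123), and *Pros1* was the other. *F10*, of the factor that factor V assists, stood at 705 ± 109 FPKM in KO and 551 ± 41.3 FPKM in WT, and *F3*, the tissue factor gene, at 1371 ± 329 FPKM in KO and 857 ± 174 FPKM in WT (adjusted p = 0.102 and 0.0656). *F10* and *F3* were chosen after their values were seen, and *F3* was called higher in TPM, with quantile normalization and with voom (adjusted p = 0.0231, 0.0276 and 0.036).

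*Lbp* (ENSMUSG00000016024, chromosome 2, 158306493 to 158332852, plus strand) encodes the protein that carries bacterial lipopolysaccharide to CD14. It was at 3.90, 3.61 and 4.24 FPKM in KO replicates 1 to 3 and at 2.38, 2.20 and 2.10 FPKM in WT replicates 1 to 3. All KO values lay above all WT values. The mean was 1.76-fold higher in KO (3.92 ± 0.317 FPKM in KO, against 2.22 ± 0.140 FPKM in WT, each with SD over n = 3; the log2 difference was 0.61 ± 0.08 with its SE, by limma at adjusted p = 0.00365). Of 8 tested genes of lipopolysaccharide recognition 2 were called higher and 1 lower, against 15.7% and 12.4% of all tested genes. The receptor gene *Tlr4* rose 2.69-fold to 15.5 ± 1.37 FPKM in KO, against 5.75 ± 0.588 FPKM in WT, and its adaptor gene *Ticam2* rose 2.45-fold (adjusted p = 0.000501 and 0.00277). *Ly86*, of MD-1, the partner of the receptor homologue CD180, fell 1.71-fold (adjusted p = 0.00187).

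*Alox15* (ENSMUSG00000018924, chromosome 11, 70344152 to 70352031, minus strand) encodes 12/15-lipoxygenase, which oxidises polyunsaturated fatty acids. It was at 37, 33.4 and 32.8 FPKM in KO replicates 1 to 3, against 71.3, 53.7 and 61.5 FPKM in WT replicates 1 to 3. Every WT library lay above every KO library, with a wider spread. The mean was 1.81-fold lower in KO (34.4 ± 2.29 FPKM in KO, against 62.2 ± 8.85 FPKM in WT, each with SD over n = 3; the log2 difference was -0.83 ± 0.12 with its SE, by limma at adjusted p = 0.00431). Of 8 other tested genes of the lipoxygenase pathway limma on all libraries as deposited and voom called 0 in either direction. At an unadjusted p below 0.05 in that limma fit, 4 were higher and 0 lower. Without KO replicate 1 there were 2 called higher and 1 lower, and without WT replicate 1 there were 2 higher. Array weights gave 4 higher and 1 lower, and quantile normalization 1 higher. Without both replicate 1 libraries there were 3 higher and 2 lower.

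The adhesion molecules of the set did not pass. *Icam2* (ENSMUSG00000001029, chromosome 11, 106377656 to 106388075, minus strand) encodes CD102, a ligand of the integrin LFA-1. It was at 6.69, 7.05 and 5.47 FPKM in KO replicates 1 to 3 and at 5.24, 5.44 and 5.71 FPKM in WT replicates 1 to 3. KO replicate 3 lay inside the WT range and the other KO libraries above it. The log2 fold change was 0.19 ± 0.10 (SE; 95% confidence interval -0.05 to 0.43, limma, adjusted p = 0.199).

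*Selp* (ENSMUSG00000026580, chromosome 1, 164115264 to 164150026, plus strand) encodes P-selectin. It was at 3.56, 2.80 and 3.07 FPKM in KO replicates 1 to 3, against 2.76, 4.20 and 4.40 FPKM in WT replicates 1 to 3. WT replicate 1 was the lowest of all 6 libraries, so the groups overlapped. The log2 fold change was -0.19 ± 0.16 (SE; 95% confidence interval -0.57 to 0.19, limma, adjusted p = 0.406). Without both replicate 1 libraries, the ones that stood apart, *Selp* was called lower, at -0.43 (adjusted p = 0.0203), while its adjusted p over 18 alternatives ran from 0.0203 to 0.73.

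Among 11 tested relatives and partners of these adhesion molecules 4 were called lower and 2 higher, with a median log2 fold change of -0.34. The shares over all tested genes were 12.4% lower and 15.7% higher. *Selplg*, of a P-selectin ligand, fell 1.49-fold and *Pecam1*, of a junction molecule of endothelium and leukocytes, 3.32-fold (limma, adjusted p = 0.00205 and 0.00749). The integrin genes *Itgb2* and *Itgb1* rose, *Itgb1* by 1.30-fold (adjusted p = 0.0133), though not without KO replicate 3 (adjusted p = 0.051) or in TPM (adjusted p = 0.0882).

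*Selp* and *F5* lie 1811 bases apart on the same strand of chromosome 1. The ratio of their FPKM values, *F5* over *Selp*, was 6.15, 7.99 and 7.0 in KO replicates 1 to 3 and 4.49, 2.72 and 2.88 in WT replicates 1 to 3. The groups did not overlap (exact permutation test, two-sided, p = 0.1, the smallest that 3 against 3 can give).

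Set against *Gata6* within each library, the receptors and *Prg4* were also lower in KO. The ratio of *Timd4* to *Gata6* was 0.125, 0.137 and 0.170 in KO replicates 1 to 3, against 1.20, 2.05 and 1.15 in WT replicates 1 to 3. *Vsig4* over *Gata6* was 0.211, 0.521 and 0.386 in KO and 1.64, 1.05 and 1.12 in WT, and *Prg4* over *Gata6* was 11.1, 18.1 and 18 in KO and 34.2, 36.1 and 30.9 in WT. In each of these 3 the groups did not overlap (exact permutation tests, two-sided, p = 0.1 each). *F5* over *Gata6* was 3.82, 7.0 and 6.60 in KO and 3.92, 3.81 and 3.47 in WT, and *Lbp* over *Gata6* was 0.680, 1.13 and 1.30 in KO and 0.752, 0.734 and 0.574 in WT (exact permutation tests, two-sided, p = 0.2 and 0.3). In these, KO replicate 1, where *Gata6* was high, lay within the WT range. Of the 7 ratios computed, *Timd4* over *Icam2* included, none could reach p below 0.05 in this design.

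The order of levels within the set differed between the groups. FPKM is scaled for gene length, so levels can be set side by side. In both groups *Prg4* was highest, followed by *Alox15*, *F5* and *Icam2*, and the first 3 of these did not overlap with the next gene down. In KO the order went on with *Gata6*, *Lbp*, *Selp*, *Vsig4* and *Timd4*, where *Gata6* overlapped with *Icam2* and with *Lbp*. In WT it went on with *Timd4*, *Vsig4*, *Selp*, *Gata6* and *Lbp*, and each neighbour from *Icam2* to *Gata6* overlapped with the next. *Timd4* was the lowest of the 9 in KO and *Lbp* in WT.

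**Figure D2:**
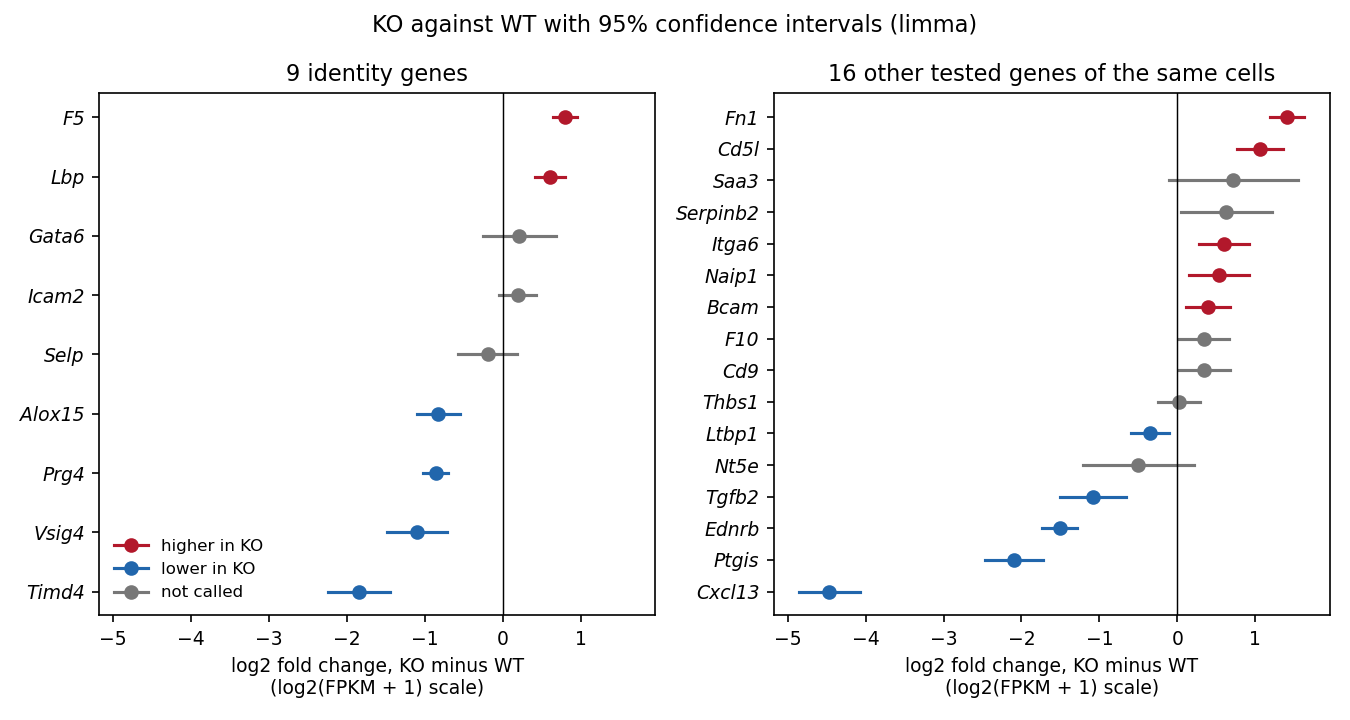
Log2 fold change, KO minus WT, of log2(FPKM + 1), with 95% confidence intervals from limma (n = 3 each), for the 9 identity genes (left) and 16 other tested genes described as high in the same cells (right). Values run from -1.84 for *Timd4* to 0.80 for *F5* on the left, and from -4.47 for *Cxcl13* to 1.41 for *Fn1* on the right.

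Other genes described as high in large peritoneal macrophages also went both ways. Of 20 listed, 16 were tested, 5 were called lower and 5 higher. The median log2 fold change was 0.35 and the mean -0.25, so their signs differ. *Cxcl13*, of a B cell attractant that these macrophages secrete, fell 34.6-fold to 1.67 ± 0.477 FPKM in KO, against 57.8 ± 8.50 FPKM in WT (limma, adjusted p = 5.19e-05). *Ptgis*, of prostacyclin synthase, fell 5.04-fold to 4.85 ± 0.138 FPKM in KO, against 24.4 ± 5.87 FPKM in WT, and the endothelin receptor gene *Ednrb* fell 3.03-fold (adjusted p = 0.000474 and 0.000255). The growth factor gene *Tgfb2* was at 0.0405, 0.0328 and 0.0576 FPKM in KO replicates 1 to 3, against 1.86, 0.836 and 1.05 FPKM in WT replicates 1 to 3 (adjusted p = 0.00724). *Ltbp1*, of a protein that binds latent TGF-beta, was 1.43-fold lower (adjusted p = 0.0484), a call that was lost without any library other than WT replicate 2. *Tgfb2* and *Ltbp1* were chosen after their values were seen.

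Upward, *Fn1*, the fibronectin gene, rose 2.66-fold to 1540.4 ± 52.9 FPKM in KO, against 579.7 ± 30.3 FPKM in WT (limma, adjusted p = 0.000318). *Cd5l*, of a secreted survival factor of resident macrophages, rose 2.09-fold to 82.3 ± 0.396 FPKM in KO, against 39.3 ± 6.72 FPKM in WT (adjusted p = 0.00239). The laminin receptor gene *Itga6* was 1.65-fold higher (adjusted p = 0.0203). *Naip1*, of an inflammasome sensor, and *Bcam*, of a laminin-binding adhesion molecule, were chosen after their values were seen and had adjusted p = 0.0481 and 0.0486. Without KO replicate 2, KO replicate 3, WT replicate 2 or WT replicate 3 the rises numbered 2, *Fn1* and *Cd5l*. They numbered 3 in TPM and 2 when libraries were centred on pan-macrophage markers. Below the filter lay *Aspa*, *Garnl3*, *Wnt2* and *Rarb*, a retinoic acid receptor gene with 2 reads over the KO libraries and 0 over the WT libraries.

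**Figure D3:**
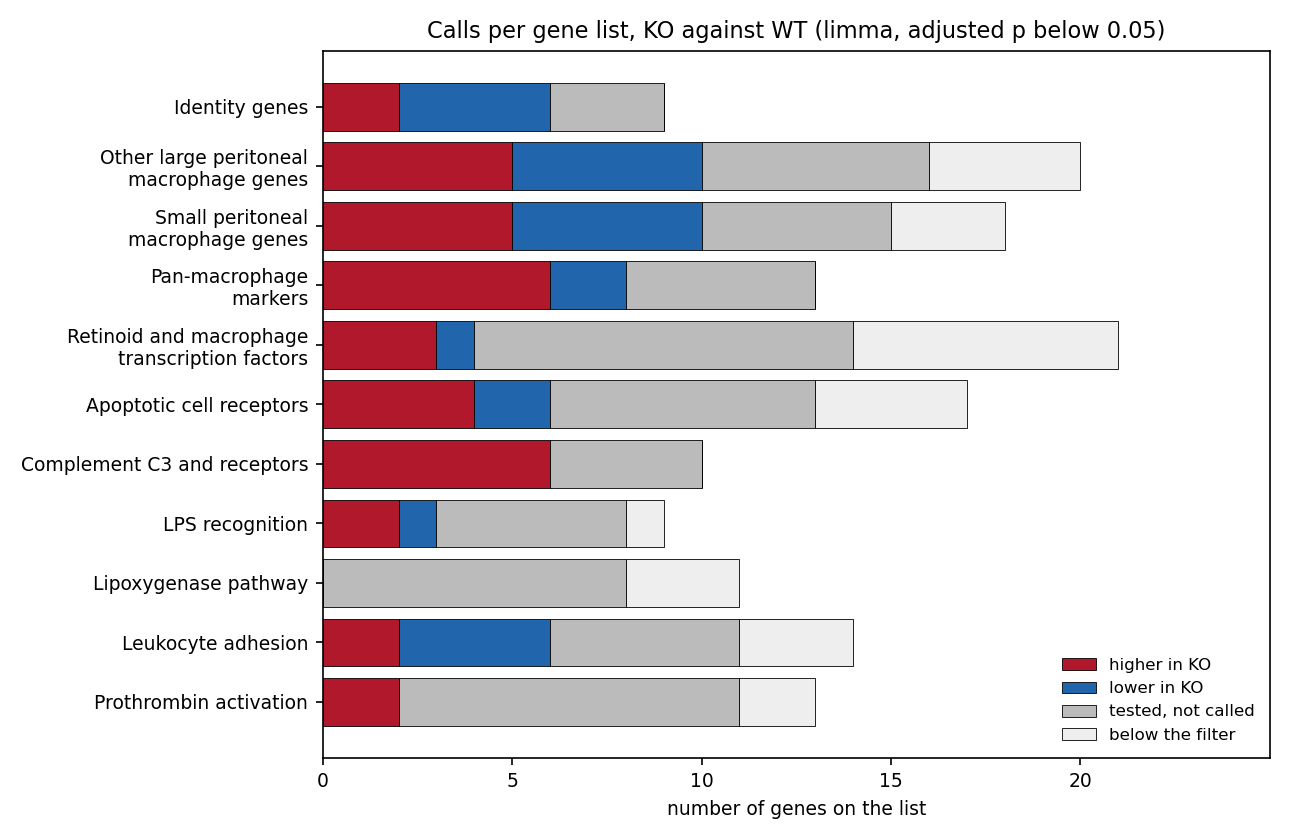
Number of genes per list called higher in KO, called lower in KO, tested but not called, and below the filter (limma, adjusted p below 0.05). The 9 identity genes split into 2 higher, 4 lower and 3 not called, and the other large peritoneal macrophage genes into 5 higher, 5 lower, 6 not called and 4 below the filter.

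Genes of small peritoneal and monocyte-derived macrophages, the other macrophages of the cavity, split as well. Of 15 tested 5 were called lower and 5 higher, with a median log2 fold change of 0.13. *Retnla*, of a resistin-like protein, rose 3.35-fold, and the lectin genes *Mgl2* and *Clec10a* rose 2.88-fold and 2.62-fold (limma, adjusted p = 0.000108, 0.000273 and 0.00216). *Ciita*, of the regulator of MHC class II genes, fell 7.34-fold, the class II gene *H2-Eb1* 1.38-fold and the transcription factor gene *Irf4* 3.55-fold (adjusted p = 0.000169, 0.0208 and 0.0242). B cells also carry these 3. The lower genes numbered 2 without KO replicate 1 or WT replicate 2 and 1 without KO replicate 2, KO replicate 3 or WT replicate 3.

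Of 13 pan-macrophage markers 6 were called higher and 2 lower, with a median log2 fold change of 0.40; in TPM 3 were higher and 2 lower. The lysozyme gene *Lyz2* rose 2.01-fold, *Spi1*, which encodes PU.1, 1.42-fold and *Itgam* 1.36-fold (limma, adjusted p = 0.00719, 0.00936 and 0.00594). *Spi1* was lost in TPM and with quantile normalization (adjusted p = 0.101 and 0.0717) and *Itgam* in TPM (adjusted p = 0.0792). *Lyz2* was lost with no filter (adjusted p = 0.07), and a replicate block called none of these. *Marco*, of a scavenger receptor, fell to 20.8 ± 4.12 FPKM in KO, against 78.8 ± 5.52 FPKM in WT, and *Fcgr1*, of a high-affinity antibody receptor, fell to 1.24 ± 0.416 FPKM in KO, against 4.75 ± 1.06 FPKM in WT (adjusted p = 0.00047 and 0.00419). Each library was also centred on the mean of these markers, whose mean log2 fold change was 0.15, below their median of 0.40. A shift by that median was not tried. Centring on the mean moved the median log2 fold change of all tested genes to -0.12, against 0.03 as deposited. All 6 called identity genes stayed called. *Timd4* was then at -2.00, *Vsig4* at -1.25, *Prg4* at -1.01, *Alox15* at -0.98, *Lbp* at 0.45 and *F5* at 0.65 on the log2(FPKM + 1) scale. Calls higher in KO made up 55.9% of all calls as deposited, 31.8% in TPM and 28.2% with this centring.

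**Figure D4:**
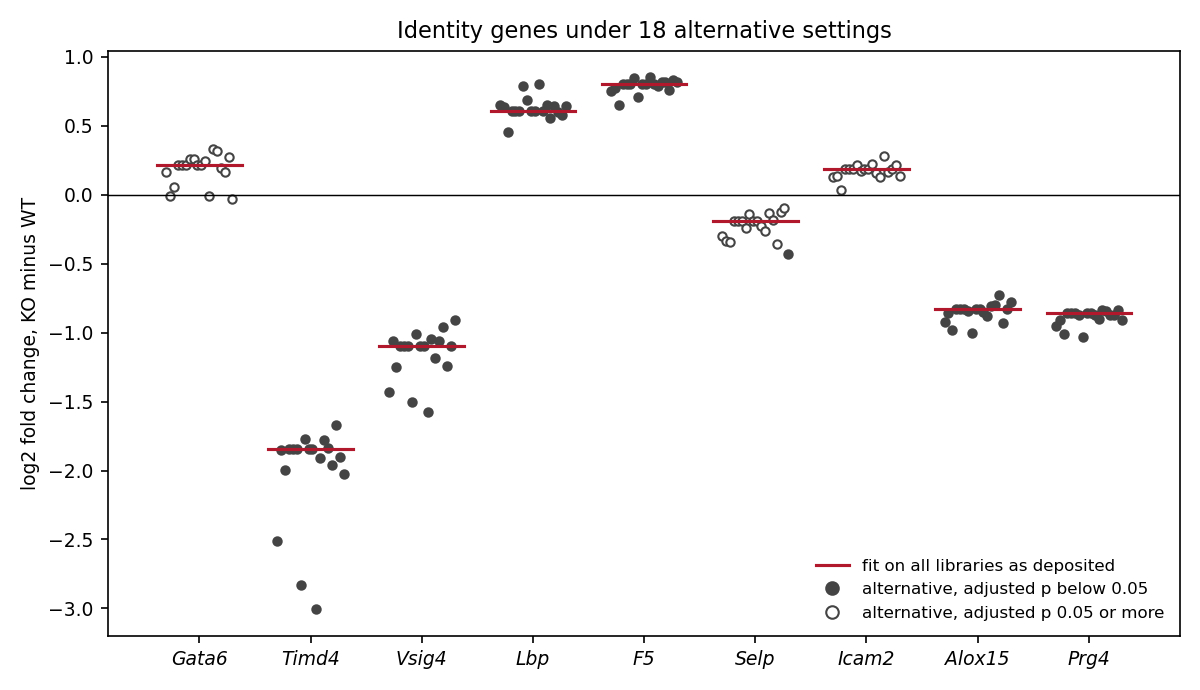
Log2 fold change, KO minus WT, of the 9 identity genes in the fit on all libraries as deposited (red line) and under 18 alternative settings (circles, filled where the adjusted p is below 0.05). The 6 called genes stay filled throughout, *Gata6* lies on both sides of 0, and *Selp* is filled in 1 setting.

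Markers of other cells moved with genotype too. All 14 B cell markers fell, at a median log2 fold change of -2.84, with a summed level of 32.8 to 41.7 FPKM in KO and 617 to 800.3 FPKM in WT. The part of this difference in the falls of *Timd4* and *Cxcl13* was not tested. Eosinophil markers, set beside *Alox15*, summed to 0.642 to 1.50 FPKM in KO and 5.14 to 5.39 FPKM in WT, below *Alox15* in every library. That comparison does not give the share of *Alox15* RNA that came from eosinophils, which was not tested. Both tested markers of 8 were called lower, *Il5ra*, which B-1 cells also carry, and *Ear2*. The eosinophil gene *Ear1* had 0 reads in every library and *Prg2* 0 in the KO libraries. Mesothelial markers, set beside *Prg4*, summed to 2.08 to 2.70 FPKM in KO and 3.93 to 4.94 FPKM in WT. Of 3 tested, 0 were called by limma on all libraries as deposited or by voom, and 1 was lower at an unadjusted p below 0.05. With 1 library left out 0 were called lower, and under the other alternatives up to 2. The part of mesothelial cells in the *Prg4* fall was not tested. Of 6 tested fibroblast markers 4 fell, led by *Sparc*, *Col1a1* and *Col1a2* (adjusted p = 0.000552, 0.00108 and 0.00476). The list summed to 363 to 464 FPKM in KO and 339 to 438 FPKM in WT, nearly all of it from 1 gene, *Pdpn*, at 392 ± 55.3 FPKM in KO and 383 ± 51.4 FPKM in WT (adjusted p = 0.881), which was chosen after its values were seen. The falls are therefore not visible in that sum.

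Platelet and endothelial markers are set beside *Selp* and *F5*. Of 3 tested platelet markers *Pf4* and *Ppbp*, chemokine genes, fell 2.20-fold and 3.10-fold (limma, adjusted p = 0.00074 and 0.00377). The list summed to 295 to 330.1 FPKM in KO and 639 to 727 FPKM in WT. Nearly all of that sum came from *Pf4*, at 305 ± 18.6 FPKM in KO and 670 ± 46.3 FPKM in WT. In the 8 markers under the filter the KO and WT values overlapped, and the platelet receptor gene *Gp1bb* had 0 reads in every library. Whether platelet content differed was not tested. Both tested endothelial markers rose, the cadherin gene *Cdh5* to 2.97 ± 0.133 FPKM in KO, against 1.48 ± 0.0407 FPKM in WT and *Vwf*, of von Willebrand factor, to 4.90 ± 0.542 FPKM in KO, against 2.59 ± 0.547 FPKM in WT (adjusted p = 0.00153 and 0.011), though *Vwf* not in TPM (adjusted p = 0.0586). The endothelial list summed to 8.08 to 8.71 FPKM in KO and 3.95 to 4.92 FPKM in WT, most of it from *Cdh5* and *Vwf*. The other 7 markers lay under the filter. Of these, *Kdr* had a lower mean in KO and *Sele* a higher one, both with overlapping values, and *Emcn* and *Robo4* had 0 reads in every library. *Pecam1*, the junction molecule gene described with the adhesion genes, fell. Whether endothelial content differed, and its part in the *F5* rise, was not tested.

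Of the remaining lists, 4 of 4 tested T and NK cell markers, 6 of 8 dendritic cell, 2 of 9 neutrophil and 4 of 4 mast cell markers fell. The neutrophil count was 1 without KO replicate 2, KO replicate 3 or WT replicate 3, the mast cell count 2 without KO replicate 3 or WT replicate 3, and the eosinophil count 1 without any library other than KO replicate 1. With 1 library left out the lowest count was 4 for dendritic cells and 3 for T and NK cells. Under the other alternatives, which include other filters, the lowest counts were 2 dendritic, 2 T and NK, 1 neutrophil, 0 mast and 0 eosinophil. Among markers of macrophages of other tissues 1 of 4 tested was called, *Tmem119*, a microglial marker gene, which rose 4.73-fold (limma, adjusted p = 0.00542), and the Kupffer cell gene *Clec4f* had 0 reads in every library.

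The mean of the 9 centred log2 profiles was -0.07, -0.20 and -0.23 in KO replicates 1 to 3 and 0.16, 0.14 and 0.20 in WT replicates 1 to 3. Over the 6 libraries the tested genes most like that mean were *Whamm*, *Ighv2-9-1*, *Tufm*, *H2-T-ps* and *Ube2o*, with Pearson r from 0.995 to 0.999. The libraries form separate groups, so r is given as a measure of likeness only. The choice fixes their direction, since the mean profile is negative in every KO library and positive in every WT library. *Whamm*, for example, was at 4.88 ± 0.429 FPKM in KO, against 6.90 ± 0.282 FPKM in WT.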

How the data were processed

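The authors deposited a table of FPKM per gene for 6 libraries, 3 per group, and the submitters' processing notes name the mouse build GRCm38 or mm10. The sources used here do not give the aligner, the counter or the strand setting. Reads were recovered from the FPKM steps, and 100% of values were whole within 0.05. Genes averaging 0.5 FPKM or more were tested on log2(FPKM + 1) with limma 3.58.1 in R 4.3.3, with genotype as the only term, an eBayes trend and Benjamini-Hochberg adjustment over 11689 genes. Folds are ratios of mean FPKM. Exact permutation tests were used for ratios within libraries. Alternatives were TPM, quantile normalization, array weights, marker centring, other filters and pseudocounts, other eBayes settings, voom, a replicate block and libraries left out. The 9 genes and all lists were chosen with earlier results of these data known. From each list up to 3 called genes per direction with the smallest p were named, with defining markers near 0, and the 5 genes most like the set; some genes that the rule picks are not reported here. Promoter sequences are from RefSeq.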

Additional observations from a re-analysis of the deposited data

How the results depend on the processing

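The 4 falls and 2 rises among the identity genes stayed called under all 18 alternatives, and without both replicate 1 libraries *Selp* made 5 lower. *Gata6* ranged from -0.011 (without KO replicate 1) to 0.33 with 1 library left out, and was -0.0073 with array weights and -0.029 without both replicate 1 libraries (limma, adjusted p from 0.853 to 0.972 for the 3 negative values). Among all tested genes 1445 were called lower and 1833 higher. Leaving out 1 library gave 851 to 1337 lower and 912 to 1681 higher. Centring on pan-macrophage markers gave 2343 lower and 919 higher, TPM 542 higher, and a minimum mean of 2 FPKM 876 lower. A replicate block gave 604 lower and 479 higher. Replicate numbers did not pair the libraries: same-numbered deviations correlated at -0.505, -0.191 and -0.158, so the block is not read as a weaker effect. The causes of these shifts were not tested. *Timd4* and *Vsig4* rest on few reads, 53 and 90 over the KO libraries, which limits their folds. Intervals cover the spread between 3 libraries a group.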
